A study of Drosophila melanogaster with 12 samples.

Results

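The heads of male fruit flies that had eaten pentylenetetrazole (PTZ) and levetiracetam (LEV) together for 2 days were compared with heads of flies on normal food. The comparison rests on 4 arrays, out of 12 arrays in a series that also sampled heads at 12 h and at 7 d. All flies were unmated *Drosophila melanogaster* males of the wild-type strain Oregon-R. Treated flies ate medium with PTZ at 8 mg/ml and LEV at 5 mg/ml, and control flies the same medium without either drug. Vials held 30 flies, and each RNA came from a pool of frozen heads, so every value is a mean over many animals. The flies are labelled as 3 to 4 days old, while the growth protocol adds another 10 to 11 days of maintenance, so their age is not settled by the labels.

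PTZ is a convulsant that blocks chloride channels gated by the inhibitory transmitter GABA. LEV is an antiepileptic drug whose binding site in mammals is the synaptic vesicle protein SV2A. A fly head holds brain and compound eyes, and also fat body, muscle, cuticle and blood cells. Fat body, the insect counterpart of liver and adipose tissue, makes many of the lipid, detoxification and immune transcripts found in a head sample. A difference measured in whole heads does not tell fewer cells of a type from less RNA per cell.

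Each array was hybridised with RNA of a treated pool and of the control pool raised in parallel with it, one labelled with the red dye Cy5 and the other with the green dye Cy3. The treated RNA was red on replicates 1 and 2 and green on replicates 3 and 4. The values are log2 ratios, so that 1 stands for a 2-fold difference. They were averaged over the 2 adjacent spots of a probe and centred on the median of their array. On replicate 4 the source names describe neither channel as treated, so the treatment protocol of each channel was used to place it.

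The labels do not say whether the deposited ratio is Cy5 over Cy3 or treated over control. Both readings are therefore given. In the turned reading, the signs of replicates 3 and 4 were reversed, as is right for ratios of Cy5 over Cy3. In the reading as deposited, no sign was reversed. Replicates 1 and 2 mean the same under both, with values above 0 for more transcript in treated heads. Single values of replicates 3 and 4 are printed as deposited throughout.

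Few spots carried a value. Of 27648 spots, replicates 1 to 4 held 2017, 2020, 1868 and 1434, and 1001 probes had values on at least 3 of the 4 arrays. Of these, 740 had values on all 4 arrays, and 203 of the other 261 lacked replicate 4. Only 196 of the 1001 probes (19.6%) had a single gene symbol, against 54.7% of all 13824 probes on the array. They stood for 190 genes, of which 97 were measured on 4 arrays and 93 on 3. Of the single-symbol probes on 3 arrays, 96 lacked replicate 4 and 2 lacked replicate 3. A mean over 3 arrays thus weighs replicates 1 and 2 above the swapped orientation.

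Probes with a single symbol behaved differently from the rest. Their 2 spots correlated at a Pearson r of 0.674, 0.742, 0.795 and 0.804 across probes on replicates 1 to 4, while the same r for the other probes was 0.242, 0.446, 0.40 and 0.211. The 2 spots differed by over 1 log2 unit in 0% to 5.02% of single-symbol pairs and in 24.6% to 38.7% of the other pairs. The ratios of single-symbol probes were also less spread, with an SD across probes of 0.51, 0.64, 0.26 and 0.32 on the 4 arrays, against 1.06, 1.47, 1.25 and 1.48. Their median lay at -0.01 on replicate 1, -0.53 on replicate 2, -0.14 on replicate 3 and -0.10 on replicate 4. Other probes had medians of 0.00, 0.32, 0.06 and 0.03. A named gene of average behaviour thus had a value near 0 on replicate 1 and below 0 on replicates 2 to 4, most of all on replicate 2. Each gene below is to be read against those medians.

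**Figure D1:**
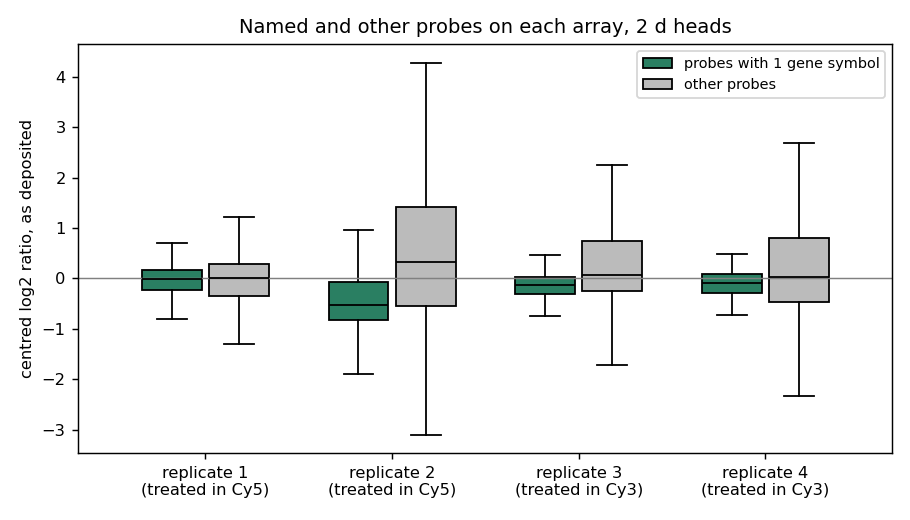
Centred log2 ratios as deposited (vertical axis) on each of the 4 arrays of 2 d heads, for probes with 1 gene symbol (green) and all other probes (grey). Boxes span the quartiles with the median as a line, whiskers reach the furthest value within 1.5 box lengths, and points beyond are not drawn. The green boxes are narrower on every array and lie lowest on replicate 2, at a median of -0.53.

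Coverage of the gene lists was uneven. Of the gene lists drawn up for fly heads, glycolysis was covered by 6 of 13 genes on the array, pentose phosphate, glycogen and trehalose metabolism by 4 of 12, cytosolic ribosomal proteins by 5 of 24 and oxidative phosphorylation by 9 of 44. Lipid and fat body genes were covered by 5 of 35 and detoxification genes by 7 of 126. Nervous system lists held few values. None of the 4 neuronal markers on the array (Appl, Rbp9, nSyb and nrv3) had a value on any of the 4 arrays, 3 of 41 transmitter genes were measured on at least 3 arrays, and 1 of 7 glial markers had a value, the glutamine synthetase gene Gs2. None of 7 clock genes, 60 cuticle genes or 12 citric acid cycle genes had a value. Of 24 phototransduction genes, inaC and rdgC were measured. The head as source could therefore be checked through a few eye genes and Gs2, and not through neuronal markers.

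No probe passed the test in either reading. Among 1001 probes tested against 0 with limma, 0 (0%) had an adjusted p under 0.05. The smallest adjusted p was 0.995 in the turned reading and 0.110 as deposited. At an unadjusted p under 0.05 there were 16 of 1001 probes turned, with none of the 196 single-symbol probes among them. As deposited there were 133 of 1001, made up of 8 of the 196 single-symbol probes and 125 of the 805 others. Chance alone gives a share of about 0.05. A one-class SAM-type statistic called 0 probes in the turned reading and 1 as deposited, a probe without a single symbol at a mean of 1.94 ± 0.14 (SD, n = 4; limma's adjusted p = 0.110). Every gene value below is thus a description, and no named gene differed between treated and control heads past the threshold.

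The readings differed in how often the arrays shared a sign. Of the 740 probes on 4 arrays, 217 (29.3%) had one sign on every array as deposited, and 34 (4.59%) did so in the turned reading. At 12 h the same shares were 16.6% and 17.1%, and at 7 d they were 22.7% and 11.8%. None of these shares was set against the share that unrelated signs would give. As deposited, pairs of 2 d arrays of the same dye orientation correlated across probes at a mean Pearson r of 0.12 (0.05 to 0.19). Pairs of opposite orientation had a mean of 0.22 (0.14 to 0.33). Among 98 single-symbol probes of the 2 d heads, 32 (32.7%) had one sign as deposited, 2 above and 30 below 0. With each array centred on the median of its single-symbol probes instead, 30 of the 98 had one sign, 14 above and 16 below. With the swapped arrays turned, 8 of the 98 had one sign when centred on the array median, 3 above and 5 below, and 6 when centred on single-symbol probes, 3 above and 3 below.

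Among the 190 genes, 11 (5.79%) lay above 0 and 11 (5.79%) below 0 on every array that measured them in the turned reading. Over all 1001 probes the same shares were 4.5% and 4.1%. As deposited, 11 genes (5.79%) lay above and 59 (31.1%) below on every array, against 14.9% and 16.6% of all probes. Gene and probe shares are not fully alike, since 3 signs match more easily than 4. Only 3 arrays measured 93 of the 190 genes, against 261 of the 1001 probes. The named probes also had the lower array medians given above.

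**Figure D2:**
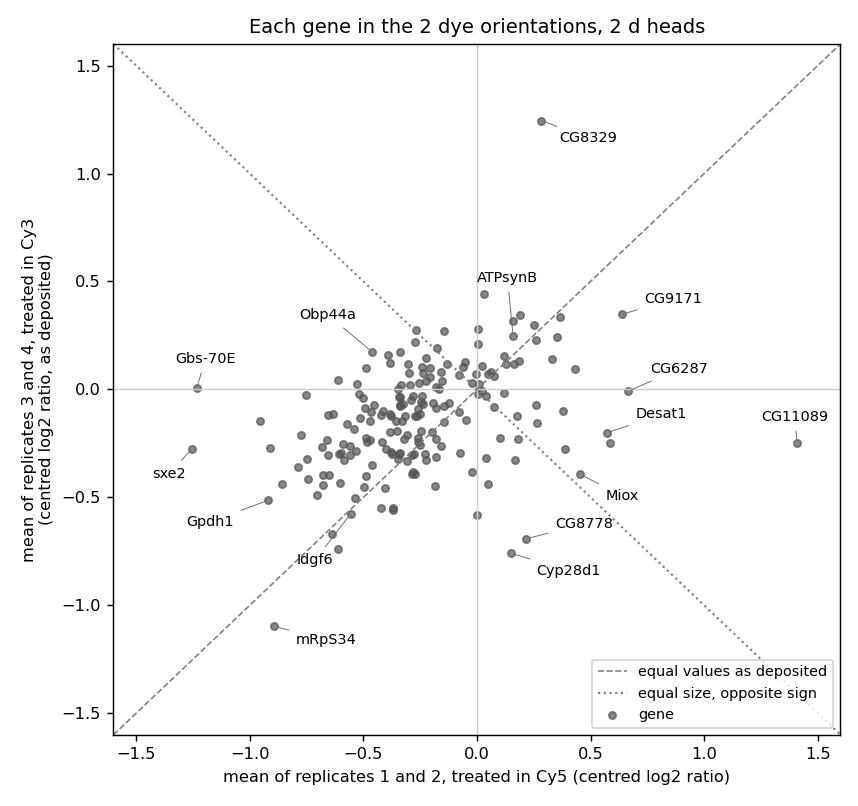
Each point is 1 gene of the 2 d heads, with the mean centred log2 ratio of replicates 1 and 2 on the horizontal axis and that of replicates 3 and 4, as deposited, on the vertical axis. For the 93 genes on 3 arrays, mRpS34 among them, the vertical value comes from a single array. Genes near the dashed line have equal values as deposited and genes near the dotted line have values of opposite sign. Gpdh1, Idgf6 and mRpS34 lie along the dashed line and Miox, Desat1 and Obp44a nearer the dotted one. Hf, with a mean of -2.25 on the horizontal axis, lies outside the frame.

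With the swapped arrays turned, the 8 genes of smallest p above 0 were CG11089, Miox, Cyp28d1, CG6287, Desat1, CG9663, CG8778 and CG8036. Their means ran from 0.29 ± 0.16 for CG8036 (SD, n = 3) to 1.02 ± 0.74 for CG11089 (n = 3), each at an adjusted p of 0.995 in limma. CG11089 had values of 1.09, 1.73 and -0.25 on replicates 1 to 3. Both Cy5 values stood far above the swapped one in size. With equal weight for each dye orientation, the turned mean of CG11089 was 0.83. Miox, which encodes myo-inositol oxygenase, had 0.71, 0.20, -0.43 and -0.36 on replicates 1 to 4. Its sizes overlapped between the dye pairs, and its mean was 0.42 ± 0.21 (n = 4). Cyp28d1, a cytochrome P450 gene, had 0.28, 0.02, -0.61 and -0.91, with a mean of 0.45 ± 0.39. Its swapped arrays were the larger pair, so replicates 1 and 2 alone gave only 0.15.

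The 8 genes of smallest p below 0 in the turned reading included both odorant-binding protein genes that were measured. Obp44a had -0.43, -0.50, 0.25 and 0.10, a mean of -0.32 ± 0.18 (n = 4). The probe of Obp19d measured on 4 arrays had -0.24, -0.23, 0.15 and 0.01, a mean of -0.16 ± 0.11 (n = 4). A second Obp19d probe, on 3 arrays, lay on the other side at 0.10 ± 0.41, so the probes of this gene disagreed. The eye and respiration were represented by rdhB, a retinol dehydrogenase gene, at -0.20 ± 0.09, and by ND-ASHI, of respiratory complex I, at -0.19 ± 0.08 (n = 3 each). The remaining 4 were CG14591, CG7409, RNASEK, the ribonuclease kappa gene, and SAK, a polo-like kinase gene of centriole duplication, with means from -0.42 to -0.28. The adjusted p was 0.995 for each in limma. The small SDs depended on the centring. With arrays centred on their single-symbol probes, Obp19d had -0.08 ± 0.26 on its first probe, rdhB -0.07 ± 0.27 and ND-ASHI -0.06 ± 0.42. Obp44a then had -0.24 ± 0.20, and the remaining 4 had means from -0.29 for CG14591 to -0.15 for SAK.

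As deposited, the 8 genes of smallest p below 0 were the ones with an unadjusted p under 0.05, namely mRpS34, Gpdh1, Idgf6, hrm, CG2157, Spase22-23, CG3036 and sxe2. Those were 8 of 196 single-symbol probes, against 125 of the 805 other probes. Gpdh1, the glycerol-3-phosphate dehydrogenase gene, had -0.83, -1.01, -0.38 and -0.65 on replicates 1 to 4, a mean of -0.72 ± 0.27 (SD, n = 4; adjusted p = 0.264 in limma). All 4 values lay below the array's single-symbol median. mRpS34, which encodes a protein of the small mitochondrial ribosomal subunit, had -1.0, -0.79 and -1.10 on replicates 1 to 3, the smallest spread among these 8, with a mean of -0.96 ± 0.16 (n = 3; adjusted p = 0.250 in limma). Idgf6, of a family of secreted chitinase-like growth factors, had -0.36, -0.75, -0.73 and -0.42, a mean of -0.57 ± 0.20 (n = 4; adjusted p = 0.321 in limma). The hrm probe had -0.31, -0.77, -0.51 and -0.49. Turned, the same values cancelled, giving -0.20 ± 0.84 for Gpdh1, 0.01 ± 0.68 for Idgf6, -0.23 ± 1.15 for mRpS34 and -0.02 ± 0.63 for hrm.

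As deposited, the 8 genes of smallest p above 0 had means from 0.20 for ATPsynB to 0.54 for CG9171. ATPsynB, a stalk subunit gene of the mitochondrial ATP synthase, had 0.17, 0.15, 0.23 and 0.26, a mean of 0.20 ± 0.05 (n = 4; adjusted p = 0.563 in limma). RpS7, of the small cytosolic ribosomal subunit, had 0.31, 0.35, 0.11 and 0.17. Marf, the mitofusin gene of mitochondrial fusion, had 0.37, 0.49 and 0.09, and FASN1, a fatty acid synthase gene, had 0.10, 0.42 and 0.23. On replicate 2 these 4 genes were above 0 while the median over all genes was -0.56. RpS12, CG4716 and CG1324 completed the set, with means of 0.21, 0.31 and 0.27 (n = 3 each). Sizes on both sides of 0 depended on the centring. With arrays centred on their single-symbol probes, ATPsynB had a mean of 0.39 ± 0.21, RpS7 0.43 ± 0.30 and Marf 0.54 ± 0.41. Of the genes below 0, mRpS34 then had -0.74 ± 0.41, Gpdh1 -0.53 ± 0.24, Idgf6 -0.37 ± 0.16 and hrm -0.33 ± 0.07.

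**Figure D3:**
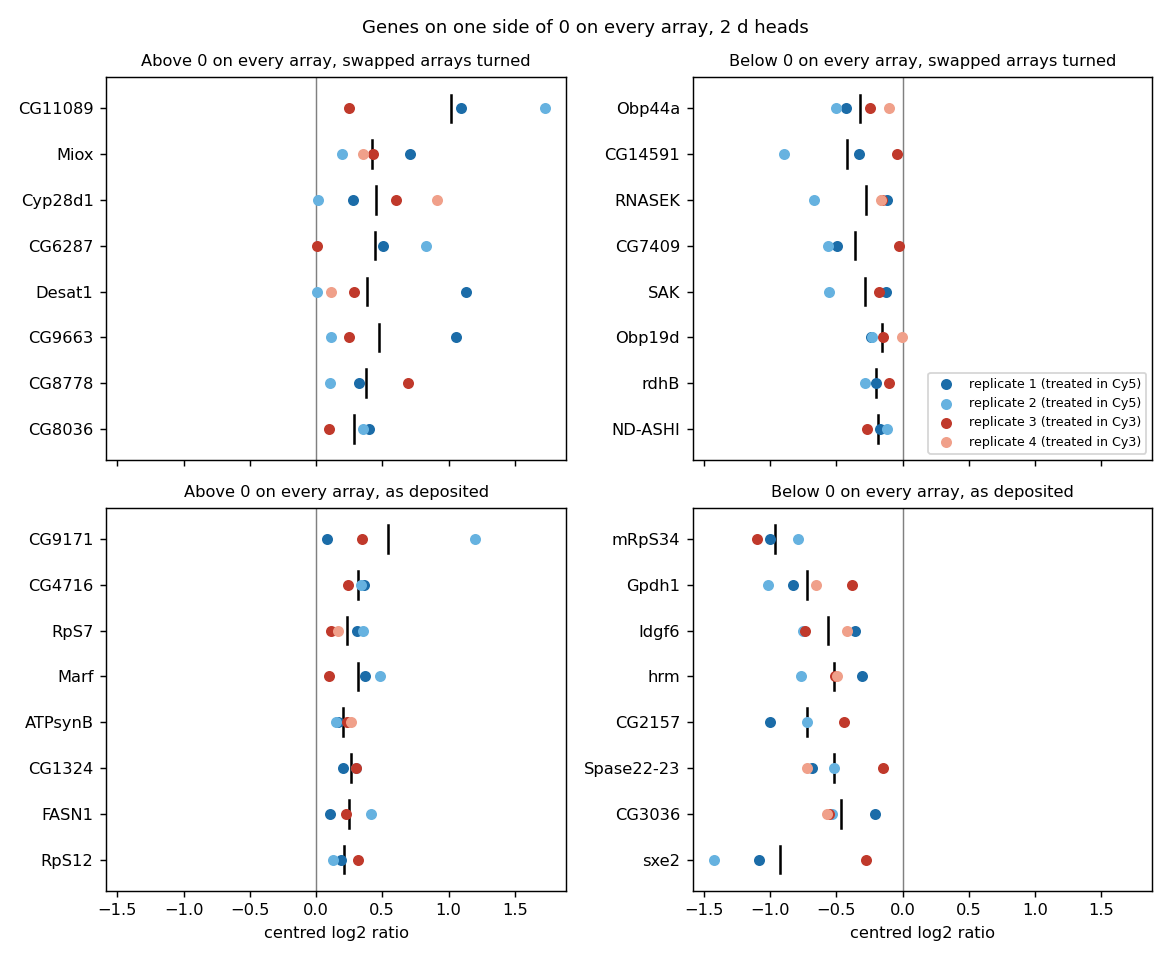
Centred log2 ratios (horizontal axes) of the 8 genes of smallest p on one side of 0 on every array, in each reading and direction, in 2 d heads. Dots are arrays, with treated RNA in Cy5 in blue and in Cy3 in red, and black lines are means. In the upper panels replicates 3 and 4 are shown with their sign reversed. In the lower panels ATPsynB has the tightest values of the genes above 0 and mRpS34 of those below 0. CG11089 has the widest values in the upper panels.

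Of the 190 genes, 100 were placed in functional classes, 64 of them from the lists and 36 by hand with their values known, and 15 classes held at least 3 genes. A class is described below by the median of its members on each array as deposited, to be set against medians over all 190 genes of 0.02, -0.56, -0.14 and -0.10 on replicates 1 to 4. Over all 190 genes, the median of gene means was -0.10 in the turned reading and -0.21 as deposited, and 145 genes had a mean below 0 on replicates 1 and 2. Means over all arrays were below 0 for 142 genes turned and 146 as deposited. Both readings hold replicates 1 and 2 with the same sign, so they are not independent of each other. In each reading 13 of the 15 class medians were below 0. Turned, this count was 2 of 15 without replicate 2, 4 of 15 on replicates 3 and 4 alone, and 8 of 15 with arrays centred on their single-symbol probes.

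The 6 glycolysis genes had medians of 0.09, -0.85, -0.18 and -0.31 on replicates 1 to 4. They lay below the medians over all genes on replicates 2, 3 and 4 and above on replicate 1. All 6 had means below 0 as deposited, at a median of -0.29, and 4 of 6 did in the turned reading, at -0.15. So did 146 of all 190 genes as deposited and 142 turned. Pgi, for phosphoglucose isomerase, and Eno, for enolase, had means of 0.04 and 0.01 on replicates 1 and 2, while Gpdh1 had -0.92 and Gapdh1, for glyceraldehyde-3-phosphate dehydrogenase, had -0.63. A second Gapdh1 probe had -0.30 there. Gpdh1 diverts a glycolytic intermediate to glycerol-3-phosphate, and it was the class member with the lowest mean as deposited.

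The pentose phosphate, glycogen and trehalose class was one of the 2 with a turned median above 0. Its 4 genes had medians of 0.11, 0.10, 0.12 and -0.28. The class had opposite members. Taldo, the transaldolase gene, had 0.20, 0.57, 0.01 and -0.56, and Miox was given above. Gbs-70E, which encodes a glycogen-binding subunit of protein phosphatase, had -1.04, -1.42, 0.22 and -0.21, with means of -0.62 ± 0.75 turned and -0.61 ± 0.75 as deposited (n = 4 each). UGP, for the enzyme that makes UDP-glucose, stayed within -0.20 and 0.25. Replicates 1 and 2 both held Gbs-70E low and Taldo high, while replicates 3 and 4 differed in sign for both genes.

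Mitochondrial genes covered respiration, protein synthesis and membrane proteins. The 10 oxidative phosphorylation genes had medians of -0.02, -0.44, 0.17 and -0.02. Of their means, 9 of 10 were below 0 in the turned reading (median -0.16) and 8 of 10 as deposited (median -0.06). Among all 190 genes, 142 means were below 0 turned and 146 as deposited. The class was highest on replicate 3. NP15.6, a complex I gene, and ATPsynB had means of 0.19 and 0.16 on replicates 1 and 2. ATPsynE and ATPsynO, also of the ATP synthase, had -0.61 and -0.52, so subunits of that one enzyme lay on both sides of 0. On replicate 2, ATPsynE had -1.17 and ATPsynO -1.06, and ATPsynB had 0.15.

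Both mitochondrial ribosomal protein genes, mRpS34 and mRpL37, lay below 0 on each of the 3 arrays that measured them as deposited. mRpL37 had -0.23, -0.77 and -0.04, far less steady than mRpS34. The 4 other mitochondrial genes had medians of -0.05, -0.51, -0.04 and -0.23. Among them Marf had a mean of 0.43 on replicates 1 and 2, and Mtch, a mitochondrial carrier homologue gene, had -0.65. IscU, for the iron-sulfur cluster scaffold, and Sfxn1-3, a sideroflexin gene, lay between, at -0.21 and -0.35. The mitochondrial phosphate carrier gene Mpcp2 had 0.18, -0.31, -0.01 and 0.21.

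Cytosolic ribosomal protein genes had the highest class median as deposited. The 5 genes had medians of 0.19, -0.14, 0.04 and 0.19, above the medians over all genes on each array. This gave 0.14 as deposited and -0.02 in the turned reading, where 3 of 5 were below 0, against 142 of all 190 genes. RpS7 and RpS12 had means of 0.33 and 0.16 on replicates 1 and 2, and RpL27 and RpL39 had -0.13 and -0.28. The 5 translation factor genes had medians of 0.13, -0.59, -0.30 and -0.15. eEF5, which encodes the hypusine-modified factor eIF5A, had 0.13, 0.10, -0.20 and 0.17, while the helicase gene eIF4A had 0.19, -0.94, -0.35 and -0.25. pAbp, for the poly(A)-binding protein, had a mean of -0.22 and eIF3f1, of initiation factor 3, had -0.42 on replicates 1 and 2.

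The 9 lipid and fat body genes had medians of -0.00, -0.30, -0.27 and -0.09, with members well above and well below 0 on replicates 1 and 2. Desat1, which encodes a fatty acid desaturase, had 1.13, 0.01, -0.29 and -0.11. Its mean of 0.57 on replicates 1 and 2 came from replicate 1, and without that array its turned mean was 0.14. FASN1 had a mean of 0.26 on replicates 1 and 2. sxe2, a lipase gene, had -1.08, -1.43 and -0.27, and Jhbp13, of the family of juvenile hormone-binding proteins, had -0.56, -1.26, -0.45 and -0.09. The means of sxe2 were -0.74 ± 0.90 turned and -0.93 ± 0.59 as deposited (n = 3 each). With equal weight for each dye orientation they were -0.49 turned and -0.76 as deposited. Class medians over the 9 means were -0.10 in both readings.

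The 7 detoxification genes had medians of -0.01, -0.44, -0.11 and -0.17. GstD1, a glutathione transferase gene, had 0.31, 0.21 and -0.07, and Cyp28d1 was given above. The cytochrome P450 genes Cyp313a1 and Cyp4ac1 lay at the other end, with means of -0.96 and -0.75 on replicates 1 and 2. Cyp313a1 had -0.64, -1.27, -0.48 and 0.18, and Cyp4ac1 had -0.31, -1.19, 0.11 and -0.16. Another P450 gene, Cyp6d5, had -0.01, -0.03 and -0.38, near 0 on both Cy5 arrays. The 4 P450 genes thus had no common profile, and Cyp4g15, also a P450 gene, was measured on fewer than 3 arrays. Both antioxidant genes, Sesn for sestrin and TrxT for a thioredoxin, were lowest on replicate 2, at -0.51 and -0.85.

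Stress and immune genes were few. The 3 chaperone genes had medians of 0.01, -0.65, -0.13 and -0.11. jdp, for a DnaJ-domain protein, had 0.01, -0.98, 0.08 and 0.11, so replicate 2 alone set its mean. l(2)efl, a small heat shock protein gene, had -0.00, -0.36, -0.13 and -0.33. DnaJ-1, a heat shock protein 40 gene, had 3 probes, whose means as deposited were -0.15, 0.25 and -0.55 (n = 3 each), so no single value describes it. The 3 immune genes were Idgf6, SPE, for the protease that activates the Toll ligand Spätzle, and BomT2, of the Bomanin immune peptides. SPE had -0.03, -1.33, -0.29 and -0.59, and BomT2 had 0.04, -0.49, 0.14 and -0.06. As deposited the class median was -0.56, the lowest of the 15, and in the turned reading it was -0.12.

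All 8 membrane traffic and secretion genes had means below 0 in both readings, at a median of -0.16 turned and -0.30 as deposited. The medians on replicates 1 to 4 were -0.16, -0.66, -0.09 and -0.44. Spase22-23, for a subunit of the signal peptidase, had -0.69, -0.52, -0.15 and -0.72, with a mean of -0.52 ± 0.26 as deposited (n = 4; adjusted p = 0.371 in limma). Scamp, a secretory carrier membrane protein gene, had -0.39, -1.18, -0.09 and -0.63. Alg-2, a calcium-binding protein gene, and Vps24, of the ESCRT-III membrane-remodelling complex, were the highest, with means of -0.18 and -0.26 on replicates 1 and 2. These genes were grouped after their values were known, and 145 of all 190 genes also lay below 0 on replicates 1 and 2. Over all arrays, 142 of the 190 genes turned and 146 as deposited had means below 0. With 1 array left out, the turned median of the class ran from -0.22 to 0.07.

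The 6 transcription regulators lay below 0 in both readings as well, at a median of -0.19 turned and -0.44 as deposited. Their medians were -0.29, -0.96, -0.23 and -0.22, below those over all genes on every array. All 6 were grouped by hand with their values known, and 142 of all 190 genes turned and 146 as deposited also had means below 0. MED26, for a Mediator subunit, had -0.31, -1.01, -0.29 and -0.18. NC2alpha, of the repressor complex NC2, had -0.36, -1.0, -0.31 and -0.22. Blimp-1, a zinc finger repressor gene, and crc, the fly ATF4 gene, had means of -0.41 and -0.47 on replicates 1 and 2. The 8 RNA-binding genes were more mixed, with medians of -0.04, -0.31, -0.01 and 0.12. The splicing factor gene Prp18 had 0.17, -0.04 and 0.08, the highest mean on replicates 1 and 2 in this class. mub, of the poly(C)-binding family, had -0.33, -1.03, -0.51 and -0.29, RNASEK had -0.11, -0.67, 0.16 and 0.16, and orb2, a CPEB-type translation regulator gene of long-term memory, had -0.11, 0.17 and 0.44.

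The 5 eye genes had medians of 0.05, -0.62, -0.13 and 0.09, within 0.1 of the medians over all genes on replicates 1 to 3. All 5 means were below 0 in both readings, at -0.17 turned and -0.15 as deposited. Of all 190 genes, 142 turned and 146 as deposited also had means below 0. inaC, the eye protein kinase C gene, had 0.33, -0.62 and -0.15, and rdgC, for the rhodopsin phosphatase, had -0.15, -0.96 and -0.26. Xport-A, which encodes a chaperone of rhodopsin and TRP channels, had 0.05, -0.75, -0.13 and 0.13. In each of these 3 genes replicate 2 was the lowest array.

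Transmitter genes were hardly sampled, although GABA channels are the target of PTZ. The 3 transmitter genes measured were Eaat2, Gs2 and t. Eaat2, an excitatory amino acid transporter gene, had -0.30, -0.67, -0.38 and -0.11, a mean of -0.12 ± 0.46 turned and -0.36 ± 0.23 as deposited (n = 4). Gs2 had -0.16, -0.47, -0.06 and -0.19, with means of -0.10 ± 0.29 and -0.22 ± 0.18. t (tan), whose enzyme recovers histamine for photoreceptors, had 0.00, -0.60, -0.06 and 0.22. Eaat2 and Gs2 had one sign on all 4 arrays as deposited, below 0, as did 59 of the 190 genes on the arrays that measured them. The class medians were -0.16, -0.60, -0.06 and -0.11, close to the medians over all genes except on replicate 1.

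The lists of ion channels and of synaptic vesicle genes held few values, and their members given here are not on the list of neuronal markers. Sh, the Shaker potassium channel gene, had 0.19, -0.87 and -0.30. alphaSnap, of vesicle fusion, had 0.15, -0.76, 0.05 and 0.19, and Clc, for clathrin light chain, had -0.41, 0.04 and -0.45. Clc was one of the genes in which replicate 2 was the highest array. The muscle genes Act79B, an actin, and Zasp66, of the Z disc, had means of -0.77 and -0.18 on replicates 1 and 2. Jon66Cii, a serine protease gene, and Ubi-p5E, a polyubiquitin gene, had -0.34 and -0.18 there.

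**Figure D4:**
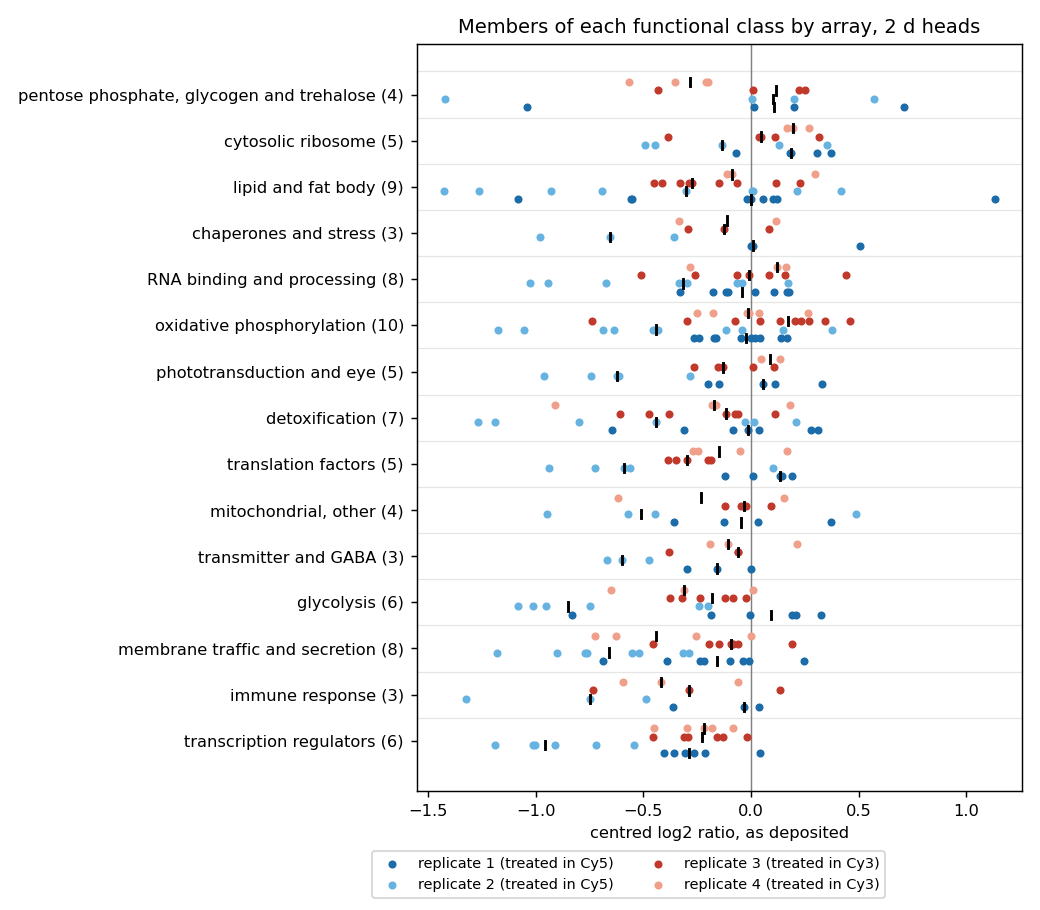
Centred log2 ratios as deposited (horizontal axis) of every member of the 15 functional classes with at least 3 genes in 2 d heads, with the number of genes in brackets. Dots are genes on 1 array, coloured by array, and black ticks are the class median on that array. Classes are ordered by their median over replicates 1 and 2. Replicate 2 (light blue) lies lowest in most classes, while the medians of the ribosomal protein class stay between -0.14 and 0.19. The pentose phosphate class is spread from -1.42 for Gbs-70E to 0.71 for Miox.

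Values also followed the position of spots in the deposited table. When the table was divided into 48 equal runs of consecutive spots, the median of a run ranged from -0.44 to 0.61 on replicate 1, from -1.02 to 2.32 on replicate 2, from -0.47 to 2.19 on replicate 3 and from -0.82 to 1.67 on replicate 4. Of the last 16 runs, 11, 13, 13 and 14 had a median below 0 on replicates 1 to 4, against 6, 6, 4 and 4 of the first 16. Run medians correlated between arrays at a Pearson r of 0.417 to 0.674 over the 48 runs, as deposited, for arrays of the same and of opposite dye orientation alike.

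Adjacent probes had similar values. Their Spearman correlation across pairs, which share the array and its spot position, was 0.162, 0.545, 0.388 and 0.278 on replicates 1 to 4, against -0.06, 0.01, -0.23 and 0.20 for probes 1000 places apart. Several genes named above had a neighbour with the same profile. Desat1, with 1.13, 0.01 and -0.29 on replicates 1 to 3, stood next to CG9663, with 1.06, 0.11 and -0.25. inaC, with 0.33, -0.62 and -0.15, stood next to kek4, with 0.31, -0.64 and 0.00. CG9663 and Desat1 are both among the 8 genes of smallest p above 0 in the turned reading, and how far position bears on their values was not tested. With arrays centred within runs, 161 (21.8%) of 740 probes had one sign as deposited and 52 (7.03%) in the turned reading.

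**Figure D5:**
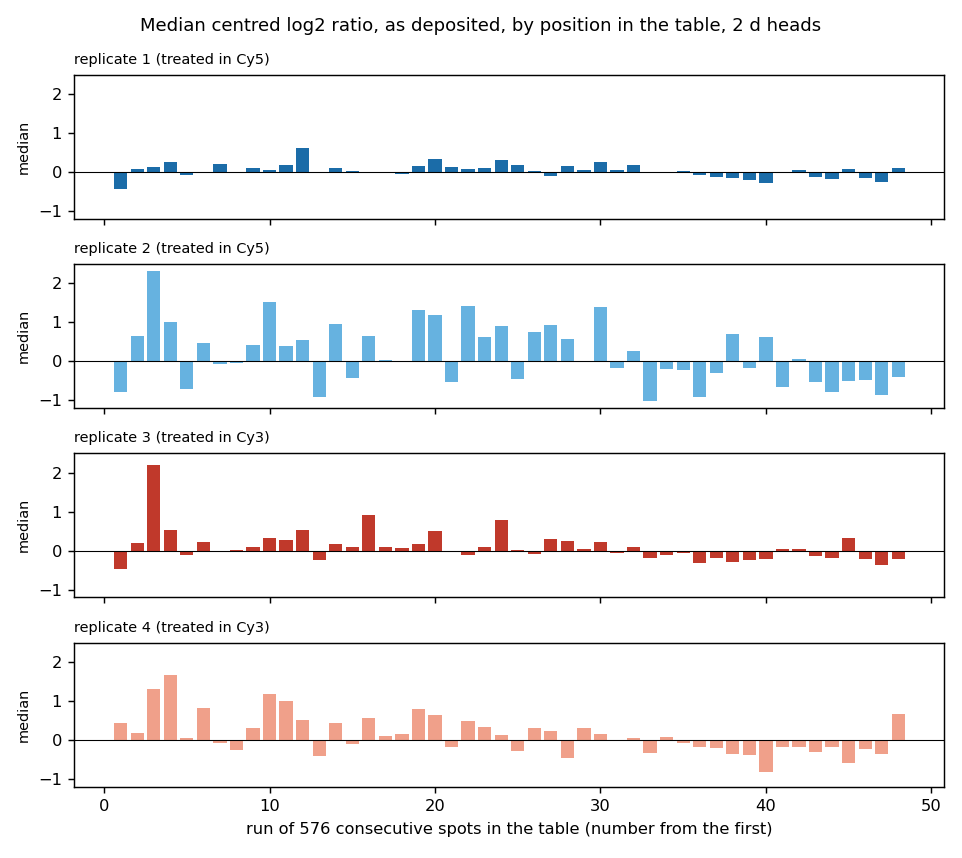
Median centred log2 ratio as deposited (vertical axes) in each of 48 equal runs of consecutive spots, in table order (horizontal axis), for the 4 arrays of 2 d heads. Bars start at 0, and each run holds 8 to 36 probes measured on at least 3 arrays. Run medians reach 2.32 on replicate 2 and 2.19 on replicate 3 in the same early run, and most of the last 16 runs are below 0 on every array.

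Centring within runs moved the named genes unevenly. The mean of Gpdh1 as deposited went from -0.72 to -0.27, that of Idgf6 from -0.57 to -0.12 and that of Spase22-23 from -0.52 to -0.12. mRpS34 went the other way, from -0.96 to -1.55. Its run held 15 of the probes on at least 3 arrays, with a median of 1.32 on replicate 2. Turned, Miox went from 0.42 to 0.38, Cyp28d1 from 0.45 to 0.40, Desat1 from 0.39 to 0.33 and Obp44a from -0.32 to -0.25. Other genes went against that split. Turned, RNASEK went from -0.28 to -0.56 and CG6287 from 0.45 to 0.22, while ATPsynB as deposited went only from 0.20 to 0.17.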

How the data were processed

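The authors deposited log2 ratios between both dyes of cDNA arrays, which per the labels are ratio-normalised. Per the series design text, images were quantified with GenePix Pro 6.0 and normalised in Acuity 4.0. Spots with bad flags, 3% or more of their pixels saturated, a pixel R2 below 0.6 or signal to noise below 3 were dropped there, and SAM 3.0 was used on spots in at least 3 of 4 replicates. The base of the logarithm was taken as 2 from the highest value, 16.61, and is not stated. Signal over background per spot is not known here, so the number of arrays limits the precision.

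Adjacent spots (odd, next even) were averaged, arrays were centred on their median, and probes on at least 3 of 4 arrays were kept. Of 7558 probes with 1 symbol on the array, 7447 were matched to RefSeq names through the entrez identifier. The array also held 51 probes with several symbols and 6215 with none. The 805 tested probes without a single symbol were not named. Where a gene had more than 1 probe, the one on most arrays stood for it, then the first. limma 3.58.1 in R 4.3.3 tested the mean against 0 (intercept only, two-sided, Benjamini-Hochberg over 1001 probes, threshold 0.05). A check on simulated data used independent noise and shifts larger than the means of nearly all named genes. It does not tell whether differences of the sizes given here could be detected. The labels call the arrays biological replicates, and SDs are over arrays.

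The members and gene lists were chosen with earlier results of these data known. Of the 100 classed genes, 64 came from lists by symbol and 36 were placed by hand after their values were seen. Classes have no test. Named were the 8 genes of smallest p with one sign on every array per reading and direction, the 2 highest and 2 lowest of each class by the mean of replicates 1 and 2, all measured transmitter genes, and genes of classes with under 3 members. kek4, Hf, Cyp6d5 and Cyp4g15 were named after their values were seen. No sequences or coordinates are given. Alternatives were other centrings, filters and spot rules, robust variances, a dye term, a SAM-type statistic and leaving out each array.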

Additional observations from a re-analysis of the deposited data

Results flagged for a closer look

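For values with 4 arrays, the array farthest from the others was checked in 62 genes and class medians per reading, of which 4 stood apart in the turned reading and 6 as deposited, while chance gives about 1 in 20. These 10 cases are not independent, since both readings use the same 4 arrays and jdp counts in each. Replicate 2 was the array that stood apart in 8 of them. In the turned reading it held jdp at -0.98, RNASEK at -0.67, eIF4A at -0.94 and the median of the chaperone class at -0.65. As deposited it held alphaSnap at -0.76, jdp at -0.98, MED26 at -1.01 and the median of the transcription regulators at -0.96. On the same array the median over all 190 genes was -0.56. In 2 cases as deposited the array was another one. CG3036 had -0.21 on replicate 1, above the other 3 arrays, which ran from -0.57 to -0.53. The pentose phosphate, glycogen and trehalose class had a median of -0.28 on replicate 4, against 0.10 to 0.12 on the others. What set these arrays apart was not tested.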

How the results depend on the processing

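No probe passed in limma under any of the alternatives, and the smallest adjusted p over them ran from 0.526 to 1.00 in the turned reading and from 0.0520 to 0.490 as deposited. The SAM-type statistic called 1 probe as deposited. The share of probes with one sign in the turned reading, 4.59%, was 6.91% with the first spot alone, 7.03% centred within runs, 8.16% among single-symbol probes and 13.3% to 22.3% without 1 array. As deposited, 29.3% became 39.6% without centring, 21.8% within runs and 37.9% to 47.0% without 1 array, where 3 signs in place of 4 have to match. Of 15 class medians, 13 lay below 0 in the turned reading, 4 on replicates 3 and 4 alone, 8 centred on single-symbol probes and 2 to 14 without 1 array, 2 being without replicate 2. As deposited the count ran from 9 to 15. Without replicate 2, 33 of 86 named genes in the turned reading and 21 of 86 as deposited took the other sign, the most for any array, and centring within runs turned 18 and 26. The cause was not tested. Centring within runs, centring on single-symbol probes and the fit of single-symbol probes centred on their own median were chosen after seeing the data, as were the shares without 1 array. Fitted alone, 196 single-symbol probes gave 4 (turned) and 32 (as deposited) with an unadjusted p under 0.05, or 6 and 34 centred on their own median. No paired analysis was possible because each array is already a ratio of a treated pool to its own control and 1 group is tested.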

Other observations

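Some genes outside the naming rule had steady values and were singled out after those were seen. Asph had -0.50, -0.47 and -0.40 on replicates 1 to 3 as deposited, a mean of -0.46 ± 0.05 (SD, n = 3), and Rtnl1, a reticulon gene of the endoplasmic reticulum, had -0.24, -0.29, -0.20 and -0.25, a mean of -0.24 ± 0.04 (n = 4). In the turned reading Asph and Rtnl1 came to -0.19 ± 0.51 and -0.02 ± 0.28. Apt1 had -0.12, -0.19, 0.10 and 0.05, which gave -0.12 ± 0.06 in the turned reading (n = 4). Hf had -0.11 and -0.36 on replicates 1 and 3 and -4.38 on replicate 2, the lowest value of any single-symbol probe on that array.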
